A study of Homo sapiens with 2 samples.

Results

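Antisense RNAs and the genes they are named after were described in a pair of libraries of the human H9 line. The antisense RNAs were the rows whose gene symbol ends in -AS and a digit, without GNAS-AS1, and with at least 200 raw reads summed over both libraries. Of 24462 symbols in the count files, 979 carried that suffix, and 193 met the read minimum. A total of 785 fell under 200 reads, with a median of 27 summed reads, and 72 of them had 0 reads in both libraries. Each antisense RNA was set against its partner, the gene named before the suffix. The members were chosen by their summed raw reads, so the levels of a member that was high in 1 library only are given as description.

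The libraries came from neural precursor cells (NPC) and from undifferentiated human embryonic stem cells (hESC), 1 library each. The H9 line is established and pluripotent, and the NPC were derived from it by co-culture with MS5, a mouse stromal feeder line. No genotype change or drug is named for either group. Bulk RNA was taken with Trizol and sequenced with the SMARTER mRNA-Seq library kit. The NPC library held 24065750 reads and the hESC library 19686728 reads. With 1 library per group no difference has a replicate check and no p-value is given.

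Antisense RNAs are transcribed from the strand opposite to another gene. Many start close to the start of that gene and run away from it, so that a pair shares a stretch of promoter, while others begin inside the gene or beyond its end and cross it. Most are long non-coding RNAs found at low levels, and several that lie beside developmental transcription factor genes are known to be made in the same tissues as those factors. Because the strand setting of the counting is not given in the sources used here, reads from exons that both genes of a pair cover cannot be told apart. The names are those of the count files; 15 of the 193 are now named as divergent transcripts (suffix -DT) in RefSeq, and 185 have the RefSeq type lncRNA. The row HNRNPU-AS1 matches a synonym of HNRNPU itself in RefSeq, so that pair is uncertain.

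The letters between the starts of a pair show how close these genes can lie. The first 3 sequences below are RefSeq promoter windows (GRCh38.p14), 250 bases before to 50 bases after the start of the antisense RNA, written 5′ to 3′ on its own strand. Capitals mark the bases that lie between the start of the antisense RNA and the start of its partner on the other strand. They are shown for a pair whose genes were both higher in NPC and a pair whose antisense RNA was at 1 read in NPC. The third pair had the read ratio that differed most among pairs running apart with starts within 1000 bases. The last 2 are the windows of FGD5-AS1 and of FGD5, whose starts lie apart and which were called in opposite directions, and there capitals mark matches to the motifs searched.
SOX21-AS1: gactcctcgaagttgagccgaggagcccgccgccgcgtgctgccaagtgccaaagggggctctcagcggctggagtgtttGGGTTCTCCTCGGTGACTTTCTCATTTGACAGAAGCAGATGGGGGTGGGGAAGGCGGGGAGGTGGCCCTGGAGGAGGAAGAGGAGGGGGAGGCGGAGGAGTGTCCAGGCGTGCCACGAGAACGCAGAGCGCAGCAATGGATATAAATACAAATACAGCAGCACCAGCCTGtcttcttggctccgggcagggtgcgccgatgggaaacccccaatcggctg
FOXD3-AS1: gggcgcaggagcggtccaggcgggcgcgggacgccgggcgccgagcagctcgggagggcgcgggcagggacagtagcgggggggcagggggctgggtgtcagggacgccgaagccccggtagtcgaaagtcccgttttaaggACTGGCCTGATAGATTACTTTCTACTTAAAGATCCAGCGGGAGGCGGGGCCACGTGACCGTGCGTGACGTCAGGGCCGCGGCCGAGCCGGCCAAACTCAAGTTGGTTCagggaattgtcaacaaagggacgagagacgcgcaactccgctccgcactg
NDUFA6-AS1: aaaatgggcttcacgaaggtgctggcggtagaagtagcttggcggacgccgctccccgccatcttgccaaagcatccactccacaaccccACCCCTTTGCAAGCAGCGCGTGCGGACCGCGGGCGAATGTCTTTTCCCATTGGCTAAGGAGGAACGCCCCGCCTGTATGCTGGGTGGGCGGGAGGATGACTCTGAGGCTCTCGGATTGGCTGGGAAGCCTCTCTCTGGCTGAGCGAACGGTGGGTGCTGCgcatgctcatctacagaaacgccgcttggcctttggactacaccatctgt
FGD5-AS1: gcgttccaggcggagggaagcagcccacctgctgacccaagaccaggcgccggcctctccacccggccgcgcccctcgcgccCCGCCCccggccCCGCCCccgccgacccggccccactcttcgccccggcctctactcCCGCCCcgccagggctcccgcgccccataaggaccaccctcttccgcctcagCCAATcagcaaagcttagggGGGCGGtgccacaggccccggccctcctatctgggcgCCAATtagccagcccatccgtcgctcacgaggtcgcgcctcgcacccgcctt
FGD5: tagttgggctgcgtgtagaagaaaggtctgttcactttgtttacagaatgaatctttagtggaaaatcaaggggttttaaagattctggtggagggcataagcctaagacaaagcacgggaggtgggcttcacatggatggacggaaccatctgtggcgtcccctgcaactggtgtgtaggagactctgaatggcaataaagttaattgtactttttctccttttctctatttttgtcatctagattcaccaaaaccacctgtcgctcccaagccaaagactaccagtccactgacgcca

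The SOX21-AS1 window lies at chr13:94712466-94712765 on the plus strand, and the SOX21 start is 171 bases away. The FOXD3-AS1 window lies at chr1:63322409-63322708 on the minus strand, with the FOXD3 start 109 bases away. The NDUFA6-AS1 window lies at chr22:42090683-42090982 on the plus strand, with the NDUFA6 start 161 bases away. The windows of FGD5-AS1 (chr3:14948392-14948691, minus strand) and FGD5 (chr3:14818712-14819011, plus strand) share no base. The letters searched on both strands were TATAAA, the core of a TATA box, CCAAT, the core of a CCAAT box, and GGGCGG, a GC box. TAATTA, the core of many homeodomain sites, and AGGTCA, bound by nuclear receptors in the known cases, were searched too, as was the palindrome of the factor NRF1. The TAATTA motif and the NRF1 palindrome read the same on both strands. The FGD5-AS1 window held 2 CCAAT and 4 GGGCGG matches and 32 CpG dinucleotides, and the FGD5 window held no match and 6 CpG dinucleotides. Between the starts of NDUFA6-AS1 and NDUFA6 there were 2 CCAAT matches and 1 GGGCGG match, between those of SOX21-AS1 and SOX21 there was 1 TATAAA match, and between those of FOXD3-AS1 and FOXD3 there was none.

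Over 144 antisense RNAs with a RefSeq window, 48.6% held GGGCGG, beside 45.0% of all 35116 windows of the same length. The share was 36.1% of the antisense windows and 34.6% of all windows for CCAAT, 11.1% of the antisense and 13.8% of all windows for AGGTCA, and 7.64% of the antisense and 11.5% of all windows for TATAAA. It was 4.86% of the antisense and 4.84% of all windows for TAATTA, and 1.39% of the antisense and 1.24% of all windows for the NRF1 palindrome. A match is a run of letters, not a bound site. The median number of CpG dinucleotides was 19 in the antisense windows and 14 in all windows. The antisense RNAs were chosen by their reads and the set of all windows was not, so levels are not matched in these comparisons. In 25 pairs the antisense window shares bases with that of the partner, and for HNRNPU-AS1 it is the window of HNRNPU itself.

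The state of the libraries was read from marker genes. The 5 pluripotency markers summed to 29.1 CPM (read counts relative to the scaled size of the library) in NPC and 6782 CPM in hESC, with all 5 lower in NPC and none at 0. The 5 neural precursor markers summed to 1181 CPM in NPC and 23.9 CPM in hESC, and the 4 neuron markers to 1137 CPM in NPC and 34.6 CPM in hESC. The 4 stromal markers summed to 506 CPM in NPC and 517 CPM in hESC, but not in 1 direction. COL3A1 was at 288 CPM in NPC and 0.633 CPM in hESC, DCN at 11.1 CPM in NPC and 0.230 CPM in hESC, COL1A1 at 183 CPM in NPC and 249.6 CPM in hESC, and THY1 at 23.5 CPM in NPC and 267 CPM in hESC. The neural crest markers SOX10 and TFAP2B summed to 22.9 CPM in NPC and 2.13 CPM in hESC, and the 3 endoderm markers to 2.24 CPM in NPC and 1.78 CPM in hESC, with AFP at 0 reads in NPC and SOX17 and TFAP2B at 0 reads in hESC. The part of these other cell types in the values below was not tested. In bulk RNA, fewer cells of a type and less RNA per cell cannot be told apart.

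The antisense RNAs held 114164 reads, 0.475% of the NPC library, and 64512 reads, 0.328% of the hESC library. Their median level was 9.15 CPM in each library, and the highest levels were 536 CPM in NPC and 225 CPM in hESC. A gene was called higher or lower in NPC when its scaled read ratio, NPC over hESC, had an exact 95% counting interval whose near bound, the one closer to no change, reached 2-fold or more. By that rule 38 of the 193 antisense RNAs were higher, 38 were lower and 117 were neither. That is 39.4% called, beside 37.6% of all 12990 symbols with 200 or more reads (18.9% higher and 18.7% lower). The members' share thus lay near the background. With library totals in place of the scaling factors (trimmed mean of M-values, TMM), which shifts the median log2 ratio of all symbols upwards by 0.36, 51 antisense RNAs were higher and 26 lower, beside 3367 higher and 1612 lower among all symbols. The median log2 ratio was 0.14 for the antisense RNAs and -0.07 for all these symbols.

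Of the 193, 62 reached 200 reads in both libraries, 63 in the NPC library only, 18 in the hESC library only and 50 in neither. Of the 62 that reached it in both, 4 were called higher (6.45%) and 14 lower (22.6%), beside 9.55% higher and 19.0% lower of the 8882 symbols of the whole series that did so. Of the 63 that reached it in NPC only, 31 were higher and 0 lower, and of the 18 that reached it in hESC only, 0 were higher and 15 lower. Such members could hardly be called the other way. Of the 50 that reached it in neither library, 3 were higher and 9 lower. Among other non-coding names, 28 of 70 LINC symbols with 200 reads were higher and 14 were lower, 60.0% called, and the median of their log2 ratios was 1.20. Of 8 symbols that end in -IT or -OT and a digit, 3 were higher and 0 lower. At a near bound of 4-fold, 22 antisense RNAs were higher and 13 lower, and at 16-fold 6 were higher and 6 lower.

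**Figure D1:**
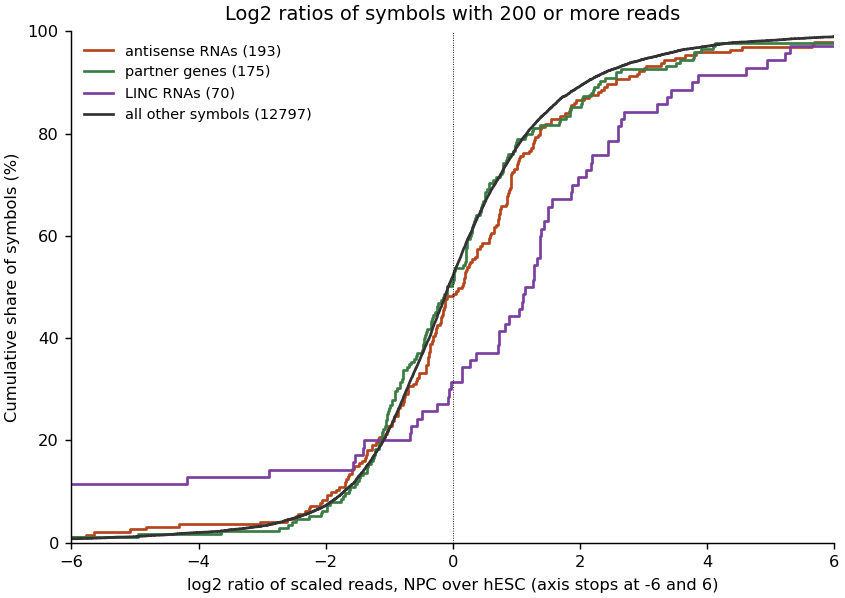
Cumulative share of symbols in percent (vertical axis) against the log2 ratio of scaled reads, NPC over hESC (horizontal axis, cut at -6 and 6), for the 193 antisense RNAs, their 175 distinct partner genes with 200 or more reads, 70 LINC symbols and the 12797 other symbols. The curves of the antisense RNAs and partners run close to that of the other symbols. The LINC curve lies to the right of them at the lower quartile, the median and the upper quartile. The lower quartile is -0.43 for the LINC symbols, -0.87 for the antisense RNAs, -1.03 for the partners and -0.90 for the other symbols.

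The antisense RNAs beside transcription factor genes held the members with the farthest shifts. Such partners were taken by the start of their symbol (HOX, SOX, NKX, OTX, FOX, ZNF and others) and made 15 pairs, of which 7 antisense RNAs were higher in NPC, 2 were lower and 6 were neither. Their median log2 ratio was 1.26. That is 60.0% called, and of the 178 other antisense RNAs 37.6% were called, 31 higher and 36 lower, and their median log2 ratio was -0.12. Every called member of the transcription factor group reached the read minimum only in the library where it was high. These shares are thus given as description, and a link between the type of partner and the calls was not tested. RHOXF1, MZF1, HIF1A and ADNP are also DNA-binding factors but fall outside the symbol starts used, and their members are counted with the others. Of these, MZF1-AS1 was higher, RHOXF1-AS1 and HIF1A-AS1 were lower, and HIF1A-AS2 and ADNP-AS1 were neither. With them the group would hold 8 higher and 4 lower antisense RNAs.

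NKX2-1-AS1 had 528 reads in NPC and 0 reads in hESC, which against a floor of 3 reads in the hESC library made it at least 112-fold higher. The near bound of its counting interval, which also covers the NPC count, was 91.1-fold. Its partner NKX2-1, a homeodomain factor of the ventral forebrain, thyroid and lung, had 2387 reads in NPC and 1 read in hESC. Both were thus at or near 0 in the hESC library, and 18.1% of the pair's NPC reads came from the antisense RNA (95% counting interval 16.7 to 19.6). About 22.6% of the exonic bases of NKX2-1-AS1 lie within exons of NKX2-1 in GENCODE 29.

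ZNF503-AS2 had 382 reads in NPC and 1 read in hESC, a ratio of 163 (43.5 to 9666). ZNF503, a zinc finger repressor of the developing striatum, had 1273 reads in NPC and 6 in hESC. LEF1-AS1 had 446 reads in NPC and 3 in hESC, a ratio of 81.5 (32.3 to 462). LEF1, which acts with beta-catenin in Wnt signalling, had 5046 reads in NPC and 25 in hESC. In both pairs the antisense RNA and its partner were higher in NPC by factors whose intervals overlap.

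FEZF1-AS1 had 3193 reads in NPC and 40 in hESC and was 50.4-fold higher (37.4 to 71.5). FEZF1, a forebrain zinc finger repressor, had 1770 reads in NPC and 95 in hESC and was 11.8-fold higher (9.68 to 14.8). The antisense RNA took 64.3% of the pair's reads in NPC (63.0 to 65.7) and 29.6% in hESC (22.1 to 38.1). OTX2-AS1 had 333 reads in NPC and 2 in hESC, while OTX2, a homeodomain factor of forebrain and midbrain, had 5418 reads in NPC and 250 in hESC. OTX2 was thus already read in hESC when its antisense RNA was near 0, and the share of OTX2-AS1 in the pair was 5.79% in NPC (5.20 to 6.43) and 0.794% in hESC (0.0963 to 2.84).

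The share of NR2F1-AS1 in its pair was lower in NPC. The antisense RNA had 1396 reads in NPC and 17 in hESC, 51.0-fold higher (32.7 to 90.3), and NR2F1, an orphan nuclear receptor that patterns the cortex, had 14304 reads in NPC and 1 read in hESC. The antisense RNA therefore made 8.89% of the pair's reads in NPC (8.45 to 9.35) and 94.4% in hESC (72.7 to 99.9). SOX21-AS1, whose start lies 171 bases from that of SOX21, had 265 reads in NPC and 13 in hESC, 12.6-fold higher (7.49 to 24.8). SOX21, a neural progenitor factor, had 541 reads in NPC and 30 in hESC, 11.3-fold higher (7.98 to 17.2). The antisense share of this pair was 32.9% in NPC (29.6 to 36.2) and 30.2% in hESC (17.2 to 46.1), and their exons do not overlap.

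FOXD3-AS1 was the member with the farthest shift downwards, at 1 read in NPC and 833 reads in hESC, a log2 ratio of -9.76 (-15.65 to -7.87). FOXD3, a forkhead factor of pluripotent cells and neural crest, had 0 reads in NPC and 86 in hESC, at least 44.9-fold lower against the floor, with a near bound of 35.7-fold by its counting interval. It lay under 200 reads and was left out of the pair counts. In hESC the antisense RNA held 90.6% of the reads of the pair (88.6 to 92.4). CEBPB-AS1 had 111 reads in NPC and 209 in hESC, 2.94-fold lower (2.33 to 3.74), and with library totals in place of the scaling factors it no longer passed the size rule. CEBPB, a leucine zipper factor, had 118 reads in NPC and 318 in hESC.

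The 6 others of the group were neither higher nor lower by the size rule. TP73-AS1, named after a gene of the p53 family, had 660 reads in NPC and 371 in hESC. KLF3-AS1 had 224 reads in NPC and 79 in hESC, and ZNF561-AS1 had 247 in NPC and 96 in hESC. ZNF337-AS1, ZNF32-AS2 and ZSCAN16-AS1 had 201, 177 and 189 reads in NPC and 70, 60 and 50 in hESC. Of their 6 partners only ZNF337 was called, with 832 reads in NPC and 154 in hESC. ZSCAN16-AS1 passed the size rule, as higher, with library totals.

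**Figure D2:**
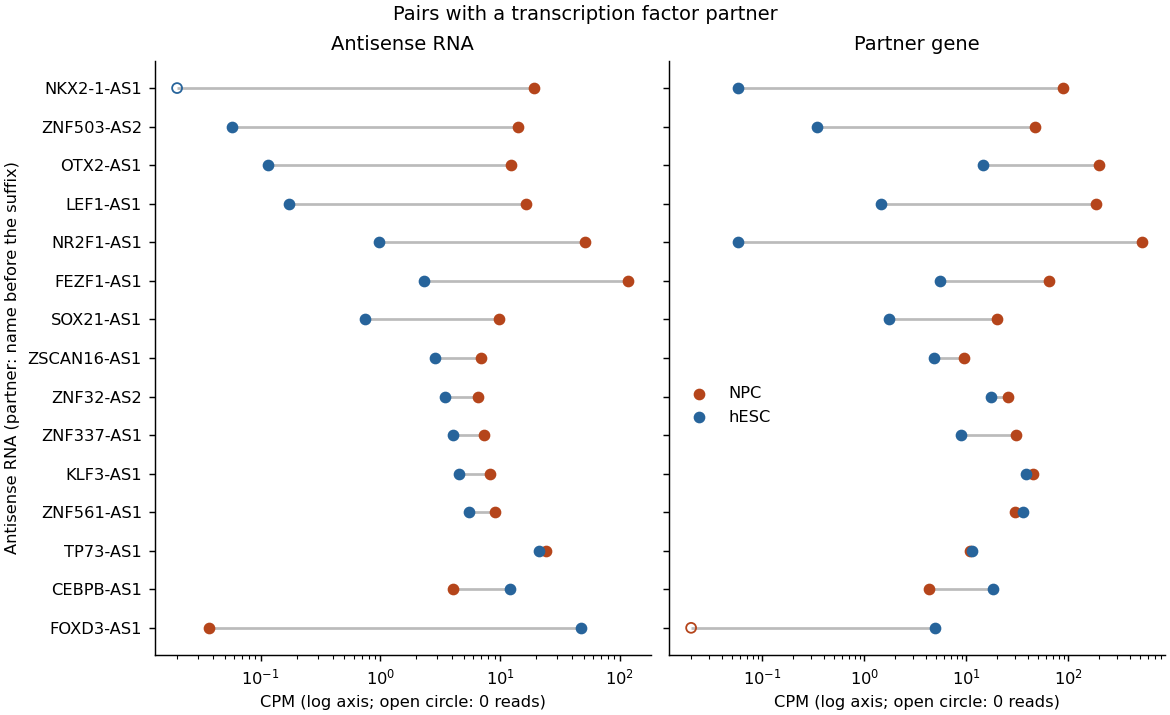
Levels in CPM (log axis) of the 15 antisense RNAs named after a transcription factor gene (left panel) and of those partner genes (right panel), with NPC and hESC as coloured points joined by a line, and open circles for 0 reads. The upper 7 rows have the NPC point to the right of the hESC point in both panels, and FOXD3-AS1 at the bottom has the reverse.

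Among the other members, NCAM1-AS1 and LEMD1-AS1 also stood among the 8 farthest upwards. NCAM1-AS1 had 527 reads in NPC and 16 in hESC, 20.4-fold higher (12.8 to 37.1), and NCAM1, a cell adhesion molecule of neurons, had 7968 reads in NPC and 292 in hESC, 17.4-fold higher (15.5 to 19.7). LEMD1-AS1 had 1426 reads in NPC and 64 in hESC, 14.1-fold higher (11.1 to 18.6), and LEMD1 had 2417 reads in NPC and 103 in hESC, 14.9-fold higher (12.3 to 18.4). About 46.1% of the exonic bases of NCAM1-AS1 lie in NCAM1 exons, and none of those of LEMD1-AS1 lie in LEMD1 exons. In both pairs the antisense RNA and the partner were higher by factors whose intervals overlap.

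The members farthest downwards, beside FOXD3-AS1, were a mixed group by partner. P3H2-AS1 had 32 reads in NPC and 1946 in hESC, 93.7-fold lower (67.2 to 139.5), and P3H2, a prolyl hydroxylase of collagen, had 781 reads in NPC and 1697 in hESC, 3.40-fold lower (3.12 to 3.71). The antisense RNA made 3.94% of the pair's reads in NPC (2.71 to 5.51) and 53.4% in hESC (51.8 to 55.0). OSBPL10-AS1 had 75 reads in NPC and 1372 in hESC, and OSBPL10, an oxysterol-binding protein gene, had 92 in NPC and 1830 in hESC. Both were lower, 28.4-fold (22.7 to 36.6) for the antisense RNA and 31.0-fold (25.2 to 38.8) for the partner.

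OR2A1-AS1, TLR8-AS1 and RHOXF1-AS1 had partners under 200 reads. OR2A1-AS1 had 26 reads in NPC and 923 in hESC, beside 7 in NPC and 105 in hESC for the olfactory receptor gene OR2A1, which has near-identical copies. TLR8-AS1 had 24 reads in NPC and 782 in hESC, beside 1 in NPC and 69 in hESC for the toll-like receptor gene TLR8. RHOXF1-AS1 had 42 reads in NPC and 223 in hESC, beside 5 in NPC and 0 in hESC for the homeobox gene RHOXF1. In these 3 pairs the antisense RNA held from 89.8% to 100% of the hESC reads of the pair.

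The 6 members with most reads were VIM-AS1, UGDH-AS1, LRRC75A-AS1, FGD5-AS1, MIF-AS1 and STARD4-AS1, of which 3 were called higher and 1 lower. VIM-AS1 had 14572 reads in NPC and 935 in hESC, 9.95-fold higher (9.32 to 10.7), and VIM, the gene of the intermediate filament vimentin, had 89513 reads in NPC and 4123 in hESC, 13.9-fold higher (13.4 to 14.3). VIM-AS1 was the highest member of the NPC library per length, at 269 CPM per kb of exon in NPC and 27.0 in hESC, with 32.2% of its exonic bases in VIM exons. UGDH-AS1 had 7440 reads in NPC and 2337 in hESC, 2.03-fold higher (1.94 to 2.13), with a near bound just short of the size rule. It passed as higher with library totals.

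LRRC75A-AS1, now named SNHG29 as a host gene of small nucleolar RNAs, had 4930 reads in NPC and 3912 in hESC and was not called. It held 94.2% of the reads of its pair in NPC and 97.2% in hESC. MIF-AS1 had 2143 reads in NPC and 3795 in hESC, 2.77-fold lower (2.63 to 2.92). MIF, a cytokine gene, had 3204 reads in NPC and 5814 in hESC, 2.84-fold lower (2.72 to 2.97), and 46.5% of the exonic bases of MIF-AS1 lie in MIF exons. STARD4-AS1 had 3865 reads in NPC and 974 in hESC, 2.53-fold higher (2.36 to 2.72), and the sterol carrier gene STARD4 was not called at 1168 reads in NPC and 600 in hESC. Per length, TXNDC12-AS1 was the highest member of the hESC library, at 50.8 CPM per kb in NPC and 157 in hESC; this gene and those below without another rule were picked after their values were seen.

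Near the read minimum, IDI2-AS1, ADD3-AS1 and GLYCTK-AS1 lay just inside. They had 117, 110 and 200 reads in NPC and 86, 94 and 5 in hESC. USP3-AS1, ATE1-AS1 and BAALC-AS2 lay just outside, with 163, 198 and 184 reads in NPC and 36, 0 and 12 in hESC.

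Of the 193 antisense RNAs, 191 had a row for the partner, and 179 pairs had 200 or more reads for both genes. RPARP-AS1 and MLK7-AS1 had no row under the partner's name, 12 partners were under the minimum, and 4 partners served several members. The 175 distinct partners with enough reads included 36 higher and 37 lower genes, 41.7% called, which lay near the 37.6% of all symbols with 200 or more reads. In 47 pairs both genes were called in the same direction, 23 higher and 24 lower, and in 3 pairs they were called in opposite directions. In 86 pairs neither was called.

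In these pairs, most called antisense RNAs had a partner called the same way, and most called partners had an antisense RNA called the same way. The partner was not called for 12 higher and 7 lower antisense RNAs. The antisense RNA was not called for 12 higher and 12 lower partners. Where the antisense RNA was higher, 62.2% of 37 partners were higher, against 9.15% where it was not higher. Where the antisense RNA was lower, 75% of 32 partners were lower, against 9.52% where it was not lower. Read from the partner, 63.9% of higher partners and 63.2% of lower partners had an antisense RNA called the same way. The sign of the log2 ratio was the same in 138 of 179 pairs.

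Across the 179 pairs the log2 ratios of antisense RNA and partner had a Pearson correlation of 0.738 and a Spearman correlation of 0.732. All points share the same libraries, and genes of a pair may share reads, so this is a description. For the 175 pairs with a usable neighbour, the partner gave a Pearson correlation of 0.773 and the nearest other coding gene 0.276. That neighbour was called the same way as the antisense RNA in 24 of 67 cases and the partner in 47 of 67.

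**Figure D3:**
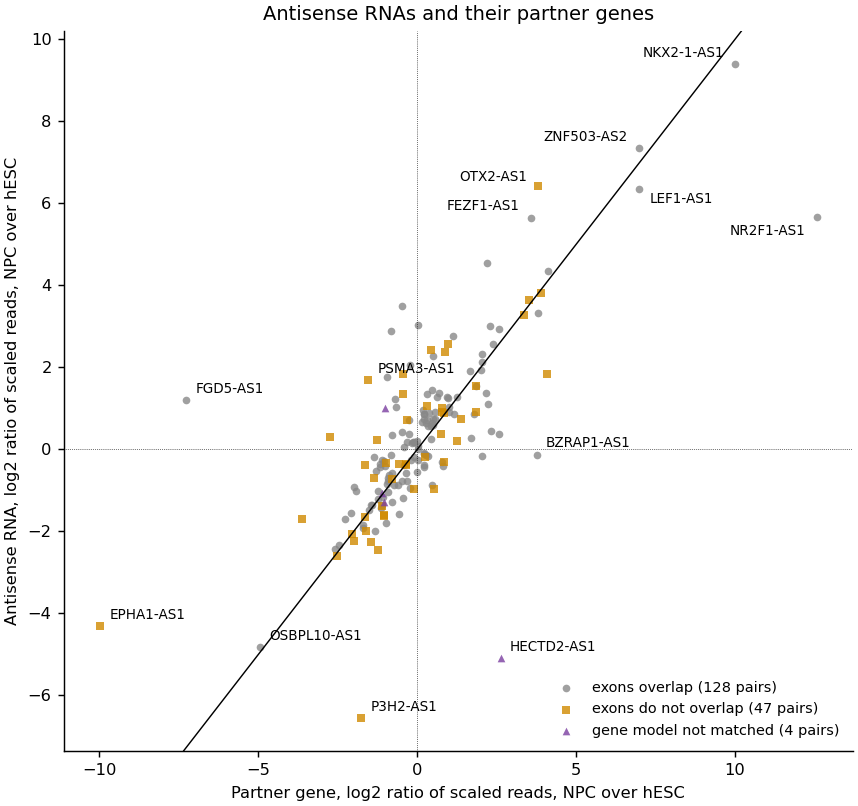
Log2 ratio of scaled reads, NPC over hESC, of each antisense RNA (vertical axis) against that of its partner gene (horizontal axis) for 179 pairs, with 0.5 added to each count, coloured by exon overlap, and the diagonal line for equal ratios. Most pairs lie along the diagonal, and FGD5-AS1, PSMA3-AS1 and HECTD2-AS1 lie in the quadrants of opposite sign.

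The pairs were split by how their gene models lie in GENCODE 29. Exons of the antisense RNA and the partner overlapped in 128 pairs, and the median share of antisense exonic bases inside partner exons was 12.5% there. In 47 pairs no exonic base overlapped, and the Pearson correlation was 0.745 in these and 0.784 in the 128. Among the 47, 16 pairs were called in the same direction and 1 in opposite directions. In 29 of the 47 the gene bodies overlapped, and 12 of these were called in the same direction (Pearson correlation 0.726). In 17 the genes did not overlap and started within 1 kb, and 3 of these were called in the same direction (0.715). In the 1 left the starts lay farther apart, and both genes were called in the same direction. In 34 pairs the antisense exons overlapped no exon of any gene, and the correlation was 0.790. The shared direction was thus also measured where no exon overlaps in these models, which are of another annotation than the unnamed one behind the counts. Where gene bodies overlap, reads from introns of the partner may be counted for the antisense RNA, and their part was not tested.

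Examples without exon overlap, chosen after their values were seen, were found both ways. SRGAP3-AS3 had 199 reads in NPC and 35 in hESC, 3.59-fold higher (2.53 to 5.36), and SRGAP3, a GTPase-activating gene of Slit-Robo signalling, was 17.0-fold higher (14.7 to 19.8). CELF2-AS2 had 520 reads in NPC and 114 in hESC, 2.90-fold higher (2.38 to 3.60), and CELF2, a splicing regulator, was 3.64-fold higher (3.33 to 3.99). PRKCQ-AS1 had 53 reads in NPC and 207 in hESC, 6.07-fold lower (4.50 to 8.43), and PRKCQ, a protein kinase C gene, was 5.78-fold lower (5.01 to 6.71). LARGE-AS1 had 68 reads in NPC and 182 in hESC, and both it and LARGE, a glycosyltransferase gene, were 4.17-fold lower, with intervals of 3.15 to 5.62 for the antisense RNA and 3.77 to 4.62 for LARGE.

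Pairs with overlapping exons were called in the same direction too. RBM5-AS1, with 72.7% of its exonic bases in exons of the splicing factor gene RBM5, had 346 reads in NPC and 27 in hESC, 8.05-fold higher (5.53 to 12.6), and RBM5 was 4.86-fold higher (4.57 to 5.17). DSG2-AS1 had 201 reads in NPC and 695 in hESC, 5.40-fold lower (4.62 to 6.36), and the desmosomal gene DSG2 was 6.03-fold lower (5.69 to 6.38). SLC25A5-AS1 had 203 reads in NPC and 654 in hESC, 5.03-fold lower (4.30 to 5.93), and SLC25A5, a mitochondrial ADP/ATP carrier gene, was 5.52-fold lower (5.17 to 5.90).

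How far the genes of a pair differed by the same factor was read from the antisense-to-partner read ratio, NPC over hESC, which does not depend on library scaling. The ratio was higher in NPC in 24 of 179 pairs, lower in 10 and neither in 145, 19.0% called by the same 2-fold bound. Against the nearest other coding gene the share called was 47.4%, and against the partner in the same 175 pairs it was 18.3%. The median absolute log2 of the ratio was 0.52, and 131 pairs lay under 1.

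The 3 pairs called in opposite directions were FGD5-AS1, HECTD2-AS1 and PSMA3-AS1. FGD5-AS1 had 5165 reads in NPC and 1438 in hESC, 2.29-fold higher (2.16 to 2.44), whereas FGD5, an exchange factor for Cdc42 known from endothelial cells, had 6 reads in NPC and 637 in hESC. The antisense RNA made 99.9% of the pair's reads in NPC and 69.3% in hESC, and the log2 of the ratio of ratios was 8.46 (7.44 to 10.03). The RefSeq promoter windows of both genes, printed above, differ in CpG count and motif matches, but a link to the calls was not tested. The starts of FGD5-AS1 and FGD5 lie 129479 bases apart in RefSeq, by 1 start per gene. In the GENCODE models the closest starts among all their transcripts lie 16742 bases apart. Which FGD5 start was used in these libraries was not tested. HECTD2-AS1 had 13 reads in NPC and 292 in hESC, 33.9-fold lower (20.2 to 66.8), whereas HECTD2, a ubiquitin ligase gene, had 1464 reads in NPC and 150 in hESC, 6.22-fold higher (5.27 to 7.43).

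PSMA3-AS1 had 1589 reads in NPC and 315 in hESC, 3.22-fold higher (2.85 to 3.65). PSMA3, an alpha subunit gene of the proteasome, had 2772 reads in NPC and 5156 in hESC, 2.91-fold lower (2.78 to 3.05). Their exons do not overlap, and the antisense share was 36.4% in NPC (35.0 to 37.9) and 5.76% in hESC (5.16 to 6.41).

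The other pairs whose ratio differed most had genes of unequal change in 1 direction or a call for 1 gene only. EPHA1-AS1 and the ephrin receptor gene EPHA1 were both lower, at 15 reads in NPC and 196 in hESC for the antisense RNA, and 4 reads in NPC and 2902 in hESC for EPHA1. The antisense share was 78.9% in NPC (54.4 to 93.9) and 6.33% in hESC (5.49 to 7.24). NDUFA6-AS1 had 238 reads in NPC and 13 in hESC, 11.3-fold higher (6.71 to 22.3), while NDUFA6, a subunit gene of respiratory complex I, was not called at 2981 reads in NPC and 2671 in hESC. TMEM51-AS1 had 191 reads in NPC and 16 in hESC, 7.42-fold higher (4.58 to 13.6), and TMEM51 was not called at 122 reads in NPC and 139 in hESC.

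Towards a lower antisense share in NPC, the farthest pairs after HECTD2-AS1 were NR2F1-AS1, P3H2-AS1, BZRAP1-AS1 and EPB41L4A-AS1. BZRAP1-AS1 was not called at 461 reads in NPC and 322 in hESC, while BZRAP1, now TSPOAP1, a gene of a RIM-binding protein, was 13.6-fold higher (11.2 to 16.9) at 2165 reads in NPC and 101 in hESC. EPB41L4A-AS1 was not called at 669 reads in NPC and 330 in hESC, while the FERM-domain gene EPB41L4A was 5.89-fold higher (5.02 to 6.99). For BZRAP1 and EPB41L4A the partner was thus called and the antisense RNA was not.

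MAGI2-AS3, picked after its values were seen, had 2146 reads in NPC and 166 in hESC, 8.24-fold higher (7.05 to 9.73). MAGI2, a synaptic scaffold gene, was not called at 1162 reads in NPC and 737 in hESC. The antisense share of the pair was 64.9% in NPC (63.2 to 66.5) and 18.4% in hESC (15.9 to 21.1). MCPH1-AS1 likewise had 194 reads in NPC and 36 in hESC, 3.41-fold higher (2.40 to 5.06), and the microcephaly gene MCPH1 was not called at 486 reads in NPC and 602 in hESC.

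**Figure D4:**
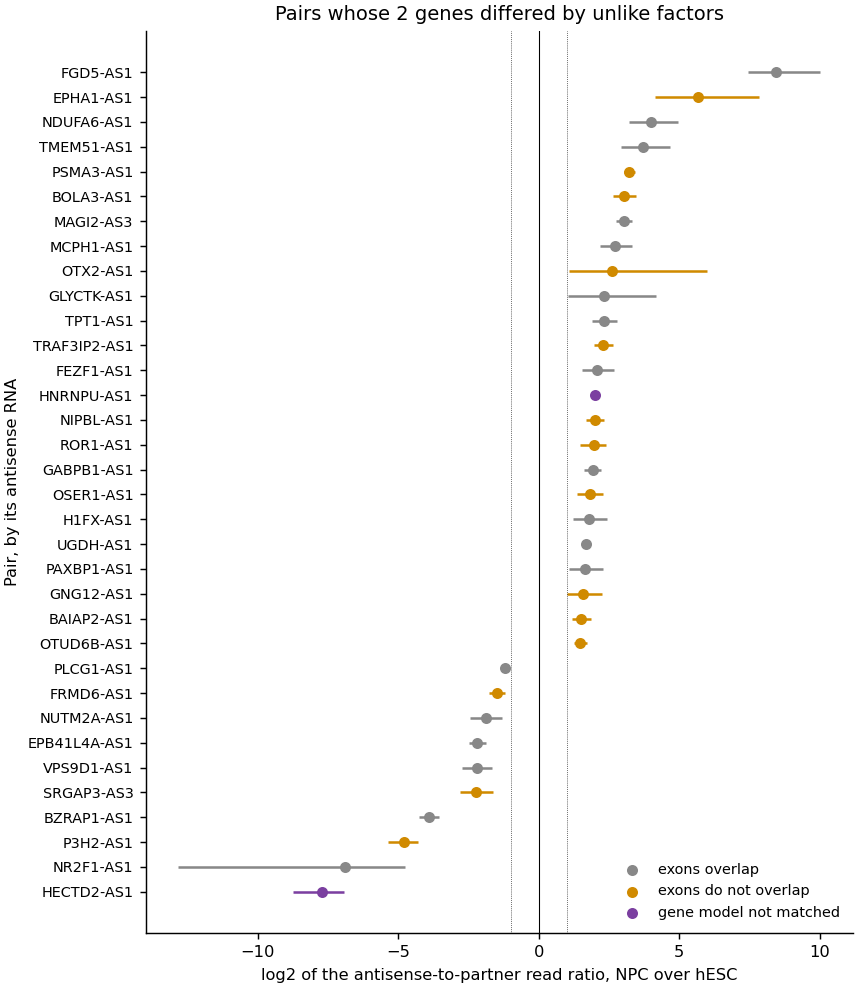
Log2 of the antisense-to-partner read ratio, NPC over hESC, with its exact 95% counting interval, for the 34 pairs called by the 2-fold bound (dotted lines at 2-fold either way), coloured by exon overlap. There are 24 pairs to the right of 0, headed by FGD5-AS1, and 10 to the left, ending with HECTD2-AS1.

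A set of pairs with starts within 1000 bases on opposite strands, running apart, was formed from RefSeq after the pair values were seen. There were 24 such pairs, 23 of them with 200 reads for both genes, and their median start distance was 165 bases. The antisense-to-partner ratio was higher in NPC in 8 of the 23 and lower in 0, and its log2 was above 0 in 17. Among the 156 other pairs it was higher in 16 and lower in 10, and above 0 in 87. The median log2 of the ratio was 0.76 in the 23 pairs and 0.07 in the others. The median log2 ratio of the antisense RNAs themselves was 0.88 in the 23 pairs and that of their partners -0.02. The read minimum let in 63 members through NPC only and 18 through hESC only, so these ratios are given as description. In 3 of the 23 pairs both genes were called in the same direction. Their log2 ratios had a Pearson correlation of 0.584 and a Spearman correlation of 0.499, beside 0.738 and 0.732 over all 179 pairs.

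The 8 pairs were NDUFA6-AS1, BOLA3-AS1, GLYCTK-AS1, TPT1-AS1, NIPBL-AS1, OSER1-AS1, UGDH-AS1 and BAIAP2-AS1. Of these, NDUFA6-AS1, GLYCTK-AS1, TPT1-AS1, NIPBL-AS1 and BAIAP2-AS1 reached 200 reads in NPC only. They thus became members through the library where they were high. NIPBL-AS1 had 779 reads in NPC and 92 in hESC, 5.38-fold higher (4.35 to 6.79), and the cohesin loader gene NIPBL was not called at 6632 reads in NPC and 3146 in hESC. TPT1-AS1 had 318 reads in NPC and 48 in hESC, 4.20-fold higher (3.12 to 5.86), and TPT1, a highly expressed gene of a translationally controlled protein, was not called at 29757 reads in NPC and 22496 in hESC. BAIAP2-AS1 had 980 reads in NPC and 120 in hESC, 5.20-fold higher (4.31 to 6.36), and BAIAP2, an actin regulator of dendritic spines, was not called at 1095 reads in NPC and 384 in hESC. BOLA3-AS1 was not called at 195 reads in NPC and 101 in hESC, while BOLA3, a gene of mitochondrial iron-sulphur cluster assembly, was 6.69-fold lower (5.83 to 7.72).

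**Figure D5:**
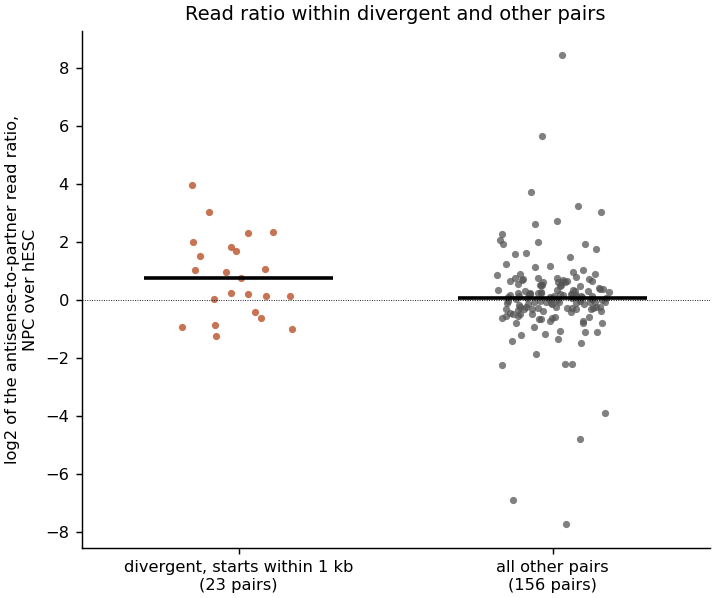
Log2 of the antisense-to-partner read ratio, NPC over hESC (vertical axis), for the 23 pairs on opposite strands with starts within 1 kb and running apart, and for the 156 other pairs; points are pairs, spread sideways for sight only, and bars are medians. The median is 0.76 in the 23 pairs and 0.07 in the others, and no pair of the 23 lies below -1.24.

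The share of a pair's reads that came from the antisense RNA had a median of 16.2% in NPC and 14.2% in hESC over the 179 pairs. It was over 50% in 20 pairs of each library, 11 of them the same pairs. Per kb of exonic length in GENCODE 29, the antisense RNA lay above its partner in 42 of 175 pairs in NPC and in 42 of 175 in hESC, and in 30 pairs in both. On that scale the median antisense level was 44.5% of the partner's level in NPC and 37.3% in hESC.

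Antisense RNAs named after the same partner were called unequally in some cases. DLGAP1-AS1 had 154 reads in NPC and 128 in hESC and was not called, DLGAP1-AS2 had 95 reads in NPC and 192 in hESC and was 3.15-fold lower (2.46 to 4.09), and the synaptic scaffold gene DLGAP1 was 3.10-fold lower (2.54 to 3.81). PTOV1-AS1 was 2.72-fold higher (2.20 to 3.41) at 449 reads in NPC and 105 in hESC, and PTOV1-AS2 was not called at 2132 reads in NPC and 868 in hESC. COL18A1-AS1 and COL18A1-AS2 had 166 and 158 reads in NPC and 136 and 132 in hESC, and neither was called. HIF1A-AS1 was 3.44-fold lower (2.60 to 4.63) at 72 reads in NPC and 159 in hESC, HIF1A-AS2 was not called at 431 reads in NPC and 345 in hESC, and HIF1A, a factor of the hypoxia response, was not called at 5276 reads in NPC and 6680 in hESC. The difference between members of the same partner was not tested.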

How the data were processed

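Total RNA of 1 NPC and 1 hESC library was sequenced. The authors deposited raw read counts per gene symbol for each library, with no normalization. Per the submitters' processing notes, TopHat, edgeR and the hg19 build were used, with no role or order stated. Not given in the sources used here are the counter, its strand setting, its annotation and its handling of reads that map to several places. Each file held 25737 rows, and no row lacked a symbol. For 286 symbols on several rows the row with most summed reads was kept, which set aside 0.107% of the NPC reads and 0.0878% of the hESC reads.

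Effective library sizes came from edgeR 4.0.16 (R 4.3.3, TMM). They gave CPM values and the log2 ratio of NPC over hESC, whose point value had 0.5 added to both counts. Intervals are exact 95% Clopper-Pearson intervals on the NPC share of a gene's reads, on the antisense share of a pair's reads, or exact conditional intervals of the odds ratio for pairs (scipy 1.17.1). They cover counting error only, since each group has 1 library. Reads counted without molecular identifiers may repeat a molecule, so the intervals may be too narrow even for that. A gene with 0 reads in 1 library was set against a floor of 3 reads there. Symbols needed 200 summed reads.

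Exon overlap and exonic lengths came from GENCODE 29 (GRCh38), and promoter windows from RefSeq; no coordinates were carried between builds. Of the 179 pairs, 175 matched gene models. Transcription factor partners were taken by the start of the symbol, without PAXIP1, PAXBP1 and IDI2, which are not such factors. The text names the 8 members each way with interval bounds farthest from no change, the 6 with most reads, the pairs called in opposite directions, the 5 pairs each way with the farthest ratio bounds, the 3 members either side of 200 reads and the antisense RNAs of transcription factor partners. The members and lists were chosen with earlier results of these data known. The scripts were tested on simulated data. Alternatives were 3 other scalings (library totals, DESeq2 1.42.0 size factors, upper quartiles), other read filters, other size rules, summed rows and other added counts. No label gives a batch, so batch and group cannot be told apart.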

Additional observations from a re-analysis of the deposited data

How the results depend on the processing

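Of the results that count genes or pairs, most moved with the read filter and the size rule, which change how many genes are counted. With library totals, 22 partners were lower in place of 37, and 1 antisense RNA of a transcription factor partner was lower in place of 2. At a filter of 500 reads, 21 antisense RNAs were higher and 21 lower, 18 partners were higher and 21 lower, 3 antisense RNAs of transcription factor partners were higher and 1 lower, and 25 of 82 pairs were called in the same direction. At a filter of 50 reads, 114 antisense RNAs were higher and 61 lower, 105 partners were higher and 79 lower, 20 antisense RNAs of transcription factor partners were higher, and of 455 pairs 108 were called in the same direction and 7 in opposite directions. At a bound of 4-fold, 22 antisense RNAs were higher and 13 lower, 20 partners were higher and 9 lower, the pair ratio was higher in 8 and lower in 4, 1 antisense RNA of a transcription factor partner was lower, and 19 pairs were called in the same direction and 1 in opposite directions. With the point ratio at 2-fold, the pair ratio was lower in 18 pairs. In the 47 pairs without exon overlap, a split chosen after seeing the data, the pair ratio was higher in 11 and lower in 3, with 16 pairs called in the same direction and 1 in opposite directions. With RHOXF1, MZF1, HIF1A and ADNP added to the transcription factor partners, also chosen after seeing the data, 4 antisense RNAs of the group were lower. The correlation moved by less than 0.1 under each alternative run for it. In the 23 pairs running apart, described above, the Pearson correlation was lower, at 0.584. Of 74 named genes, library totals took CEBPB-AS1 out of the calls and brought in UGDH-AS1, USP3 and ZSCAN16-AS1, and 5 that were not called changed sign there (LRRC75A-AS1 to 0.04, BZRAP1-AS1 to 0.23, IDI2-AS1 to 0.15, TP73 to 0.26 and ZNF561 to 0.08 in log2). No gene called changed sign under the 3 other scalings.

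No paired analysis was possible because each group has 1 library. Leaving out a library was not possible for the same reason. The counting intervals hold no variation between cultures, so a called difference describes these libraries. Where a gene had few reads in 1 library, as NR2F1 or OTX2-AS1 had in hESC, its ratio is wide. Gene models from another annotation than the one behind the counts limit the split by exon overlap.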
